A study of Mus with 8 samples.

Results

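The comparison described here used 4 of the 8 libraries of the series, 2 of C cells at day −2 and 2 of C cells at day 1, and all 24013 genes of the count table were its members. 3T3-L1 is a mouse preadipocyte line that turns into fat cells in culture when it is given an adipogenic cocktail. C cells were 3T3-L1 cells infected with a pLKO.1 lentivirus that carried a scrambled shRNA and selected with puromycin, and P cells, which made the other 4 libraries, carried an shRNA against Prep1 (Pknox1) in place of the scrambled one. Cells of day −2 were taken before induction, from DMEM with bovine calf serum. The cocktail held 0.5 mM IBMX (3-isobutyl-1-methylxanthine), 1 µM dexamethasone and 1 µg/ml insulin in DMEM with 10% FBS. It was given 2 days after confluence, and day 1 is the first day after it. Days −2 and 1 were therefore 3 days apart and differed in the time after confluence, in the serum and in 3 agents at once, and these cannot be told apart in any difference below. A library of cells held for the same time without the cocktail was not analysed here.

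Fat cell formation in this line runs as a cascade of transcription factors. Dexamethasone binds the glucocorticoid receptor, IBMX blocks the phosphodiesterases that break down cAMP, and insulin acts through the insulin and IGF-1 receptors; together they are known to switch on C/EBPβ and C/EBPδ, which in turn switch on PPARγ and C/EBPα, the factors that maintain the fat cell state. The cells also pass through a short round of cell division, round up, exchange their matrix and only later fill with lipid.

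The 4 C libraries held between 20929962 and 25975739 counts. A floor of 3 counts was set for a count of 0, which is a chosen value and no hard limit. It stood at 0.118 to 0.133 CPM (counts scaled to a library of 1000000) in a library. Ratios given below as at least a value hold against this floor. All levels below are CPM after scaling of the library sizes, are given for replicas 1 and 2 in that order, and are not corrected for gene length, so that levels of different genes are not compared. The log2 difference between the 2 replicas of a condition had an SD across 5600 well expressed genes of 0.137 in C cells at day −2 and 0.261 at day 1. It was 0.795 in P cells at day −2, whose 2 libraries thus lay furthest apart. Fibroblast and preadipocyte markers summed to 21112 to 38953 CPM in the C libraries. Markers of macrophages, endothelium, epithelium and skeletal muscle summed to no more than 9.70 CPM each in any C library, and those of bone and cartilage to between 140.3 and 184 CPM. Of 9 macrophage markers, Ptprc, Adgre1, Itgam and Cd163 were under the filter on low counts; of the other 5, Csf1r (5.74 and 4.96 CPM at day −2 and 0.355 and 0.119 CPM at day 1) and Mrc1 were called lower and Cd68 higher at day 1, and the call of Cd68 was lost with any 1 C library left out and that of Mrc1 when either day −2 library or replica 1 of day 1 was left out.

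Of the 24013 genes, 13339 had enough counts to be tested, and edgeR's quasi-likelihood test called 2723 of them (20.4%) at a Benjamini-Hochberg adjusted p under 0.1 and a ratio of day 1 to day −2 over 2 or under 0.5. Of all genes tested, 1432 (10.7%) were called higher and 1291 (9.68%) were called lower at day 1, and the median log2 ratio was −0.01. Higher genes took 4.61% of the scaled counts at day −2 and 16.6% at day 1, and lower genes 6.96% and 2.36%. More than 16-fold differences were called for 103 higher and 118 lower genes that had counts on both days. The 2 day 1 libraries did not overlap those of day −2 in 1431 of the 1432 higher genes and in all 1291 lower ones. This followed largely from the choice of genes by ratio and adjusted p, and is no separate support for the calls. The same holds for each called gene below whose days are said not to overlap or to lie apart. Genes not called could be without overlap too, as Vim and Thy1 were, and the share over all tested genes is not given here. For a single gene without overlap an exact permutation test of 2 against 2 gives a p of 0.333, the lowest it can give. All adjusted p-values below therefore come from the fit across genes. Without replica 1 or replica 2 of day −2, 1664 and 1703 genes were called, 906 and 925 of them higher and 758 and 778 lower. Without replica 1 or 2 of day 1, 765 and 839 genes were called lower. With library totals in place of TMM factors the median over all genes was −0.11, and the calls split into 1215 higher and 1455 lower genes.

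**Figure D1:**
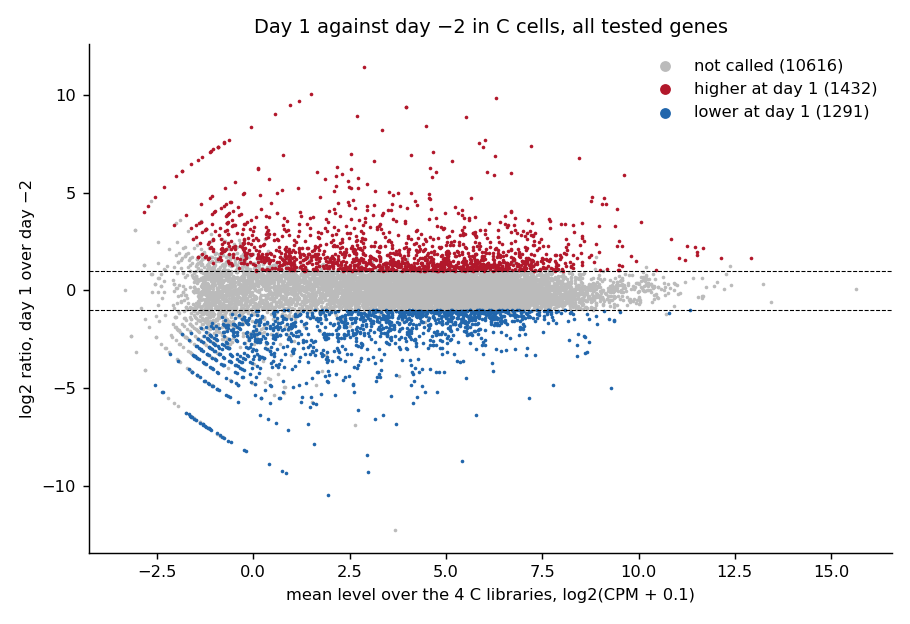
Log2 ratio of day 1 over day −2 in C cells (y axis) against the mean level over the 4 C libraries (x axis, log2 of CPM plus 0.1), 1 point for each of 13339 tested genes, with dashed lines at a ratio of 2 and 0.5. The 1432 higher and 1291 lower genes lie at all levels, and the outer curves at the left are genes with no count on 1 of the days, whose fitted ratios are not bounds.

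The calls in 35 lists of genes of known function were set against these shares. Lists with the largest share of higher members were the interferon-stimulated genes (40 of 45), the glucocorticoid receptor targets (18 of 25), the cAMP targets (19 of 28) and the complement and acute phase genes (18 of 27). Those with the largest share of lower members were ERK feedback and ETV factors (12 of 23), cholesterol synthesis and uptake (14 of 27) and contractile actin and SRF targets (17 of 37).

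**Figure D2:**
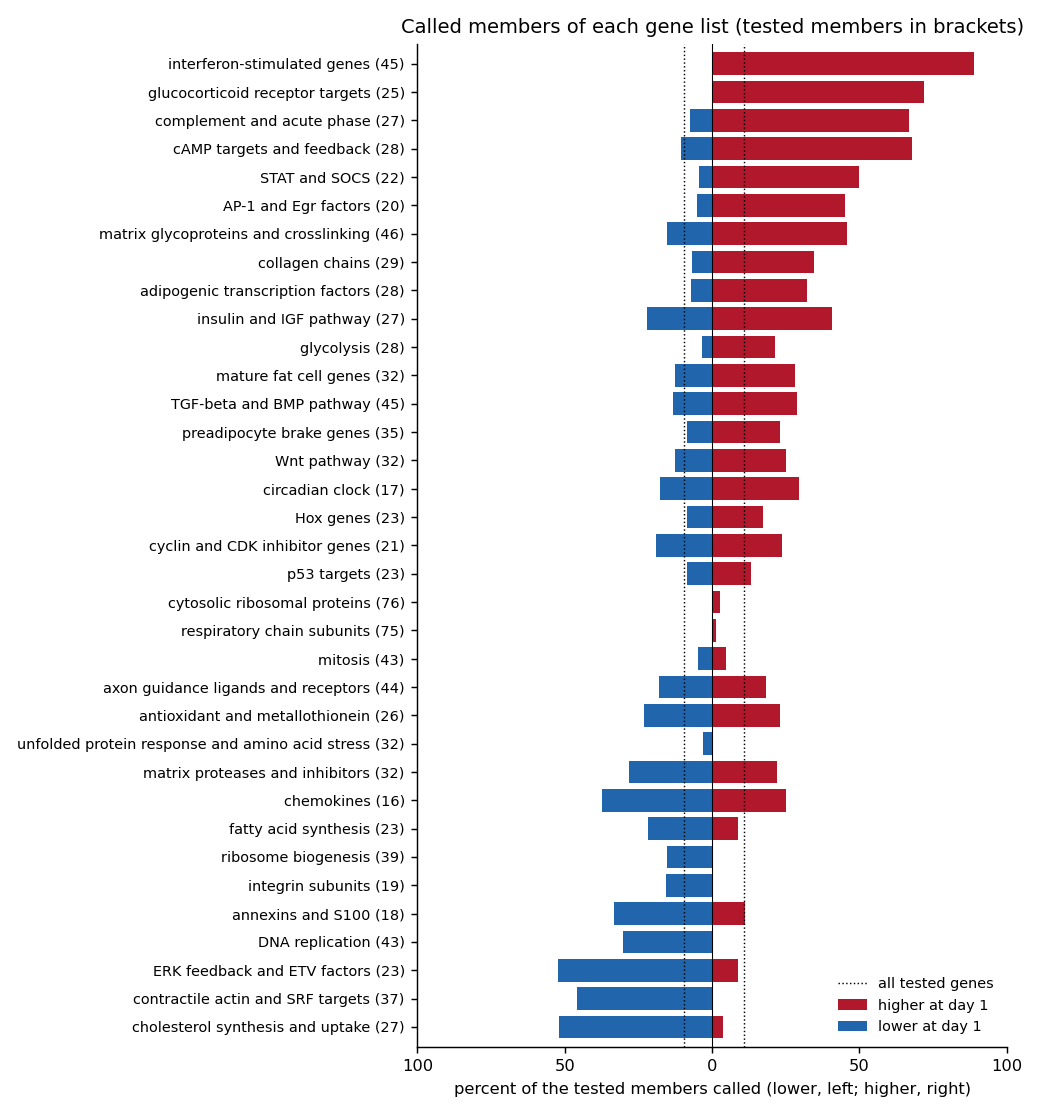
Percent of the tested members of each of 35 gene lists called higher (red, to the right) or lower (blue, to the left) at day 1 in C cells, with dotted lines at the shares of all tested genes, 10.7% and 9.68%. Interferon-stimulated genes stand at the top with 88.9% higher, and cholesterol synthesis and uptake at the bottom with 51.9% lower.

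The first lists were those next to the 3 agents. Nr3c1, which encodes the glucocorticoid receptor, was at 72.2 and 74.3 CPM at day −2 and 77.2 and 67.9 CPM at day 1 (log2 ratio −0.01 ± 0.25, adjusted p = 0.977), and the days overlapped. Of its known targets, 18 of 25 tested rose, none was called lower, and the list's median log2 ratio was 2.27 against −0.01 over all genes. Mt2, a metallothionein that binds zinc, was at 31.7 and 35.5 CPM at day −2 and 431 and 339.9 CPM at day 1 (log2 ratio 3.52 ± 0.20, adjusted p = 9.86e-05). Glul, which makes glutamine, stood at 37.9 and 38.6 CPM at day −2 and 262 and 279 CPM at day 1 (log2 ratio 2.82 ± 0.16, adjusted p = 1.13e-04). In both genes the days did not overlap, and at day 1 the replicas lay closer together in Glul than in Mt2. Lcn2, a secreted binder of iron carriers, had the largest ratio of the list and went from 0.159 and 0.177 to 179 and 136 CPM (log2 ratio 9.83 ± 0.38, adjusted p = 6.16e-05). Fkbp5, a chaperone of the receptor itself, and Tsc22d3, a glucocorticoid-induced leucine zipper, rose 6.25-fold and 16.5-fold; both were named after their values were seen. The members not called included Sgk1, a kinase, at a log2 ratio of −0.41, and Pdk4, which turns down glucose oxidation, at 0.55.

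Of the cAMP targets, 19 of 28 rose and 3 fell, with a median log2 ratio of 1.54. Members that rose included enzymes that degrade cAMP. Pde4d was at 25.2 and 27.2 CPM at day −2 and 200.4 and 206 CPM at day 1 (log2 ratio 2.96 ± 0.17, adjusted p = 1.16e-04). Pde10a was at 6.54 and 5.49 CPM at day −2 and 56.3 and 54.5 CPM at day 1 (log2 ratio 3.20 ± 0.17, adjusted p = 8.03e-05). Dusp1, a phosphatase that switches off MAP kinases, rose 5.66-fold (log2 ratio 2.50 ± 0.19, adjusted p = 2.65e-04). Akap12, an anchor of protein kinase A, fell from 149 and 125 to 9.23 and 11.4 CPM (log2 ratio −3.73 ± 0.38, adjusted p = 8.68e-04). Prkar2b, a regulatory subunit, fell from 82.8 and 78.6 to 18.2 and 15.6 CPM (log2 ratio −2.25 ± 0.17, adjusted p = 2.94e-04). The third lower member was Areg (amphiregulin), a ligand of the EGF receptor, at 0.478 and 0.62 CPM at day −2 and 1 or 2 counts in each day 1 library; its call was lost without either day −2 library or without replica 2 of day 1 (adjusted p from 0.116 to 0.158).

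The insulin and IGF list had 11 higher and 6 lower members of 27 tested, with a median of 0.55, and 5 of its 32 members were under the filter. Its ligand Igf2 rose 167-fold, the largest ratio of the list. Both receptors for insulin and IGF-1 stayed under the ratio threshold. Insr was at 39 and 38.3 CPM at day −2 and 56.1 and 57 CPM at day 1 (log2 ratio 0.55 ± 0.19, adjusted p = 0.0802). Igf1r was at 84.9 and 85.7 CPM at day −2 and 74.2 and 75.1 CPM at day 1 (log2 ratio −0.19 ± 0.14, adjusted p = 0.355). Behind the receptors, members went both ways. Irs1, the adaptor that couples them to PI3-kinase, fell from 41.8 and 39.4 to 14.6 and 15.3 CPM (log2 ratio −1.44 ± 0.17, adjusted p = 0.00153). Pik3cb, a catalytic subunit of that kinase, fell from 23.9 and 27.7 to 5.84 and 5.18 CPM (log2 ratio −2.23 ± 0.19, adjusted p = 4.12e-04). Foxo1, the transcription factor that insulin keeps out of the nucleus, rose 6.38-fold (log2 ratio 2.67 ± 0.16, adjusted p = 1.51e-04).

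Immediate early factors were high a day after the cocktail: 9 of 20 tested AP-1 and Egr genes rose and 1 fell, with a median of 0.51 (6 called without replica 2 of day −2). Fos, a component of AP-1, was at 25.7 and 38 CPM at day −2 and 771 and 952 CPM at day 1 (log2 ratio 4.76 ± 0.66, adjusted p = 0.00307). Egr1 was at 34.7 and 39.3 CPM at day −2 and 291 and 276 CPM at day 1 (log2 ratio 2.94 ± 0.19, adjusted p = 1.79e-04). Egr2 (Krox20), an early factor of fat cell formation, was at 3.87 and 4.7 CPM at day −2 and 30.3 and 24.9 CPM at day 1 (log2 ratio 2.69 ± 0.33, adjusted p = 0.00184). All day 1 values of these 3 genes lay above all day −2 values. Myc, in contrast, was at 86.3 and 87.1 CPM at day −2 and 116 and 104 CPM at day 1 (log2 ratio 0.35 ± 0.31, adjusted p = 0.459) and was not called. Clock genes changed in both directions, 5 higher and 3 lower of 17 tested (5 called without replica 1 of day −2, without replica 2 of day −2 or without replica 2 of day 1). Per2, a repressor of the clock, was at 4.58 and 5.14 CPM at day −2 and 71.3 and 77.5 CPM at day 1 (log2 ratio 3.94 ± 0.17, adjusted p = 6.16e-05). Per1 rose 7.7-fold (log2 ratio 2.95 ± 0.35, adjusted p = 0.00163). Nr1d1 (Rev-erbα), the repressor of the other limb of the clock, was at 11.9 and 9.48 CPM at day −2 and 4.06 and 3.5 CPM at day 1 (log2 ratio −1.5 ± 0.22, adjusted p = 0.00377).

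Among 28 tested adipogenic transcription factors, 9 rose and 2 fell, and the median log2 ratio was 0.85. The early factors Cebpb and Cebpd rose. Cebpb was at 94 and 109 CPM at day −2 and 317 and 307 CPM at day 1 (log2 ratio 1.62 ± 0.23, adjusted p = 0.00352). Cebpd was at 6.65 and 9.04 CPM at day −2 and 66.5 and 61.2 CPM at day 1 (log2 ratio 3.02 ± 0.34, adjusted p = 0.00137). Cebpa, one of the late factors, was near 1 CPM before induction, at 0.757 and 0.842, and reached 16.4 and 16.9 CPM (log2 ratio 4.37 ± 0.41, adjusted p = 6.86e-04). Pparg, the other late factor, was at 19.2 and 19.5 CPM at day −2 and 41.2 and 34.2 CPM at day 1 (log2 ratio 0.96 ± 0.26, adjusted p = 0.0369): the days did not overlap and the adjusted p passed, but the ratio of 1.94 stayed below 2. Klf4, Klf5 and Srebf1, activators upstream of Pparg or Cebpb, also stayed below a ratio of 2. Klf4 was at 59.2 and 75.9 CPM at day −2 and 138 and 129 CPM at day 1 (log2 ratio 0.98 ± 0.26, adjusted p = 0.0328) and was past the threshold with no filter on low counts (1.01) or without replica 1 of P cells at day −2 (1.01). Klf5 had a log2 ratio of 0.87 and was past the threshold without replica 2 of day −2 (1.02) or replica 2 of day 1 (1.00), and Srebf1 had 0.90 and was past it without replica 1 of day 1 (1.07). Klf9, a glucocorticoid-induced factor, and Nfia, a nuclear factor I protein, rose 4.11-fold (log2 ratio 2.04 ± 0.14, adjusted p = 2.33e-04) and 8.65-fold (log2 ratio 3.11 ± 0.30, adjusted p = 6.97e-04). With no threshold on the ratio, 19 of the 28 members were called.

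**Figure D3:**
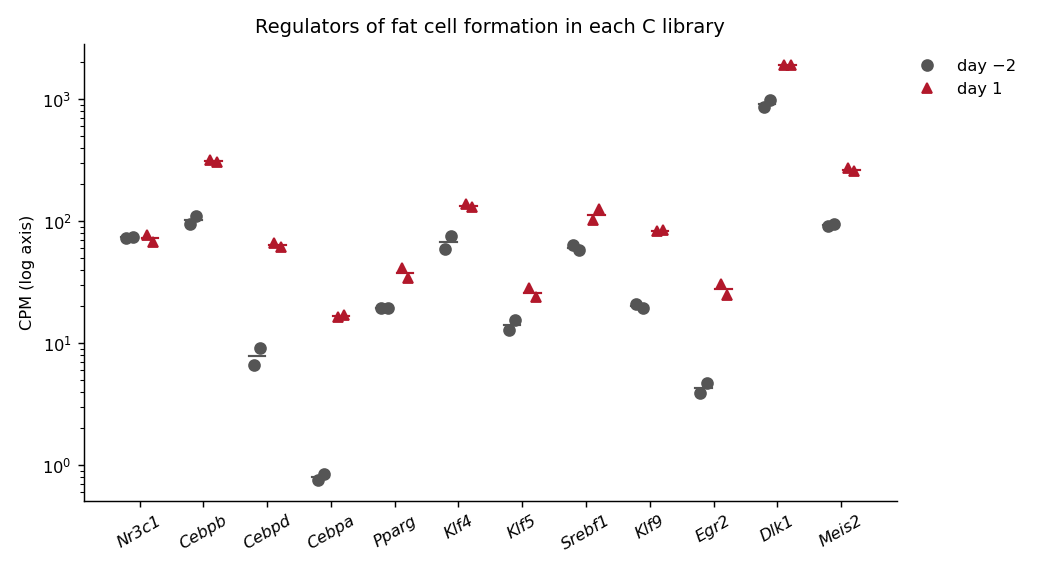
CPM of 12 regulators of fat cell formation in each C library (log axis), with grey circles for day −2, red triangles for day 1 and a bar at the mean of the 2 libraries. Cebpa lies at 0.757 and 0.842 CPM before induction and at 16.4 and 16.9 CPM after it, Pparg and Klf4 lie less than 2-fold apart, and Nr3c1 overlaps between the days.

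Genes known to hold preadipocytes back were mostly not called: 8 of 35 tested rose, 3 fell, and the median was 0.31 (7 called without replica 1 of day −2). Dlk1 (Pref-1), a surface protein that marks preadipocytes, was at 861 and 974 CPM at day −2 and 1907 and 1899 CPM at day 1 (log2 ratio 1.05 ± 0.18, adjusted p = 0.0069), higher in both day 1 libraries; without replica 1 of day −2 its log2 ratio was 0.97, under the threshold, as it was with library totals (0.94). Prep1 and its partners are homeodomain proteins. Pknox1 itself was at 28.1 and 26.4 CPM at day −2 and 38.1 and 36.5 CPM at day 1 (log2 ratio 0.45 ± 0.14, adjusted p = 0.0551) and was not called. Meis2, of a related family, was at 90.9 and 93.6 CPM at day −2 and 269 and 254 CPM at day 1 (log2 ratio 1.5 ± 0.14, adjusted p = 7.10e-04). Hes1, a Notch target, rose 2.9-fold (log2 ratio 1.53 ± 0.15, adjusted p = 8.57e-04). Runx2, the master factor of bone, fell from 45.6 and 59 to 19 and 16.7 CPM (log2 ratio −1.55 ± 0.19, adjusted p = 0.0019). Ccn2 (CTGF), a matrix-inducing growth factor, fell from 17.7 and 20.1 to 2.57 and 3.3 CPM (log2 ratio −2.69 ± 0.31, adjusted p = 0.00143).

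Genes of the mature fat cell went both ways. Of 40 listed genes, 8 were under the filter and 9 of the 32 tested were called higher, 4 lower (7 called without replica 1 and 8 without replica 2 of day −2), and the median log2 ratio was 0.31, or 0.23 with genes at 0 on 1 of the days set to the bound that 3 counts allow. Adipoq, the fat cell hormone adiponectin, was at 0.0398 and 0.0443 CPM at day −2 and 0.118 and 0.0398 CPM at day 1, that is at or under 3 counts in each library, and was not called (log2 ratio 0.84 ± 0.72, adjusted p = 0.598). Slc2a4, the insulin-regulated glucose transporter GLUT4, was at 0.199 and 0.177 CPM and then had no count at day 1, at least 1.58-fold lower against 3 counts per library; its call was lost with any 1 C library left out, at adjusted p from 0.171 to 0.192. Fabp4 (aP2), a fatty acid carrier, was at 2.07 and 2.35 CPM at day −2 and 0.789 and 1.39 CPM at day 1 (log2 ratio −1.01 ± 0.32, adjusted p = 0.0602), and its call was lost without either day −2 library (log2 ratios of −1.10 and −0.92) or without replica 1 of day 1 (−0.63). Among the members that rose were enzymes that split stored or circulating fat. Lpl, the lipase on the cell surface, was at 58.6 and 57.7 CPM at day −2 and 127 and 133 CPM at day 1 (log2 ratio 1.17 ± 0.14, adjusted p = 0.00153). Lipe (hormone-sensitive lipase) was at 5.9 and 5.05 CPM at day −2 and 24.6 and 27 CPM at day 1 (log2 ratio 2.23 ± 0.21, adjusted p = 6.97e-04). Abhd5, the activator of the first lipase of the droplet, was at 21.6 and 21.7 CPM at day −2 and 153 and 132 CPM at day 1 (log2 ratio 2.72 ± 0.25, adjusted p = 6.28e-04). Fabp5, another fatty acid carrier of the list, fell from 109 and 107 to 15.6 and 15.1 CPM (log2 ratio −2.82 ± 0.15, adjusted p = 8.03e-05). Car3 and Thrsp were called higher on 2 or 3 counts per day 1 library, at or under the floor of 3 counts. Both lost their calls with any 1 C library left out, and no ratio is given for them.

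Most of the called genes of lipid synthesis were lower at day 1. In the cholesterol list 14 of 27 tested members fell and 1 rose, with a median log2 ratio of −1.07 (9 called without replica 1 of day −2 or replica 1 of day 1). Fdps, which makes the isoprenoid farnesyl pyrophosphate, was at 224 and 214 CPM at day −2 and 45.7 and 49.1 CPM at day 1 (log2 ratio −2.21 ± 0.19, adjusted p = 4.62e-04). The single member that rose was Abca1, the exporter that hands cholesterol to HDL, at 2.71 and 2.3 CPM at day −2 and 140.1 and 158 CPM at day 1 (log2 ratio 5.89 ± 0.23, adjusted p = 6.16e-05); the days of both genes lay far apart. In fatty acid synthesis 5 of 23 members fell and 2 were called higher, with a median of −0.44. Elovl6, a chain elongase, fell to 17.8 and 16.9 CPM from 85.7 and 82.7 (log2 ratio −2.28 ± 0.26, adjusted p = 0.00137). Me1, the malic enzyme that supplies NADPH, fell 3.32-fold (log2 ratio −1.73 ± 0.16, adjusted p = 6.25e-04). Scd1, the desaturase, went the other way, from 72 and 74.4 to 208 and 187 CPM (log2 ratio 1.43 ± 0.16, adjusted p = 0.00125). Glycolysis had 6 higher and 1 lower member of 28, with a median of 0.64. Pfkp, a phosphofructokinase, rose 2.75-fold (log2 ratio 1.46 ± 0.17, adjusted p = 0.00147), and Pdk1, a kinase that inhibits pyruvate dehydrogenase, 2.99-fold (log2 ratio 1.58 ± 0.18, adjusted p = 0.00153). Of 75 respiratory chain subunits 1 was called, and their median was 0.06.

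The ERK feedback list held the genes that follow growth factor signalling through ERK, and 12 of its 23 members fell while 2 rose, with a median of −1.10. Etv4 and Etv5, ETS factors downstream of FGF and ERK, fell 82.5-fold and 8.03-fold. Etv5 was at 27.7 and 28.5 CPM at day −2 and 3.08 and 3.9 CPM at day 1 (log2 ratio −3.01 ± 0.22, adjusted p = 2.47e-04). Ccnd1 (cyclin D1), through which such signals enter the cell cycle, was at 769 and 700.3 CPM at day −2 and 80.9 and 84.8 CPM at day 1 (log2 ratio −3.15 ± 0.22, adjusted p = 2.34e-04), so that both day 1 libraries lay far below day −2. The 2 members that rose both inhibit the pathway. Spry1 was at 10 and 9.35 CPM at day −2 and 22.8 and 22.7 CPM at day 1 (log2 ratio 1.23 ± 0.19, adjusted p = 0.00445). Dusp6, an ERK phosphatase, was at 30.6 and 40.01 CPM at day −2 and 97 and 82.6 CPM at day 1 (log2 ratio 1.35 ± 0.23, adjusted p = 0.00685).

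The cell cycle was covered by 3 lists. None of 43 DNA replication genes was called higher and 13 were called lower, with a median of −0.63 (8 called without replica 1 of day −2, 7 without replica 1 of day 1); at an adjusted p under 0.1 and no ratio threshold 26 were called. Ccne1 (cyclin E1), which opens S phase, was at 71.9 and 72.4 CPM at day −2 and 22.4 and 19.3 CPM at day 1 (log2 ratio −1.79 ± 0.16, adjusted p = 4.81e-04). Cdc6, which loads the replicative helicase, was at 51.1 and 50.4 CPM at day −2 and 20.01 and 19.4 CPM at day 1 (log2 ratio −1.37 ± 0.16, adjusted p = 0.00145). Of 43 mitosis genes 2 were higher and 2 lower, with a median of 0.02. Top2a, the topoisomerase that separates chromosomes, was at 471 and 468 CPM at day −2 and 975 and 934 CPM at day 1 (log2 ratio 1.03 ± 0.18, adjusted p = 0.00706) and had a log2 ratio of 0.92 with library totals. Anln, a scaffold of the cleavage furrow, fell to 140.0 and 133 CPM from 285 and 295 (log2 ratio −1.09 ± 0.16, adjusted p = 0.00405). Among cyclin and CDK inhibitor genes, 5 of 21 rose and 4 fell (5 called without replica 2 of day −2). Cdkn1b (p27), which stops the cycle in G1, was at 42 and 40.1 CPM at day −2 and 103 and 93.4 CPM at day 1 (log2 ratio 1.26 ± 0.17, adjusted p = 0.00294). Cdk6, a partner of cyclin D, was at 29.5 and 25.1 CPM at day −2 and 6.31 and 6.65 CPM at day 1 (log2 ratio −2.08 ± 0.19, adjusted p = 5.69e-04). Cdkn1a (p21) was at 59.1 and 62.9 CPM at day −2 and 84.7 and 80.7 CPM at day 1 (log2 ratio 0.44 ± 0.32, adjusted p = 0.354) and was not called.

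Ribosome biogenesis fell in 6 of 39 members and rose in none, with a median of −0.60 (2 called without replica 1 of day 1). Utp20 and Heatr1, which process the pre-ribosomal RNA, fell 2.92-fold (log2 ratio −1.55 ± 0.14, adjusted p = 5.69e-04) and 2.41-fold (log2 ratio −1.27 ± 0.16, adjusted p = 0.00188). The cytosolic ribosomal proteins themselves had 2 of 76 members called, both higher, and a median of 0.20; neither was called without replica 1 of day −2, without replica 2 of day −2 or without replica 1 of day 1. Summed, they took 73331 and 72014 CPM at day −2 and 95793 and 75397 CPM at day 1, so that 1 of the day 1 libraries stood close to day −2. The unfolded protein response list had 1 of 32 members called, Phgdh, an enzyme of serine synthesis, which fell 3.21-fold (log2 ratio −1.68 ± 0.27, adjusted p = 0.00537; 2 members called without replica 1 of day 1). Of 23 p53 targets, 3 rose and 2 fell, with a median of 0.06 (1 called without either day −2 library or without replica 2 of day 1, 2 without replica 1 of day 1).

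Contractile and cytoskeletal genes were low at day 1: 17 of 37 tested members fell, none was called higher, and the median was −1.01. Acta2, the smooth muscle actin of stress fibres, was at 439 and 404 CPM at day −2 and 14.9 and 14.5 CPM at day 1 (log2 ratio −4.84 ± 0.19, adjusted p = 6.16e-05). Tagln (SM22), which binds actin, was at 18.8 and 15.9 CPM at day −2 and 0.237 and 0.119 CPM at day 1 (log2 ratio −6.57 ± 0.34, adjusted p = 8.03e-05). Myl9, a light chain of non-muscle and smooth muscle myosin, was at 34 and 32 CPM at day −2 and 0.908 and 1.39 CPM at day 1 (log2 ratio −4.83 ± 0.33, adjusted p = 2.12e-04). In all of these the day 1 libraries lay far below the day −2 libraries. Actg1, a cytoplasmic actin, went from 3509 and 3347 to 1722 and 1688 CPM (log2 ratio −1.01 ± 0.14, adjusted p = 0.00311), with a ratio just past the threshold that was not passed without replica 1 of day −2 (−0.97), replica 1 of day 1 (−0.99) or replica 2 of day 1 (−0.98). Flna, which crosslinks actin, went from 2581 and 2289.9 to 983 and 1212 CPM (log2 ratio −1.15 ± 0.17, adjusted p = 0.00392; −0.98 without replica 1 of day 1). Of 19 integrin subunits 3 fell and none was called higher (1 called without replica 2 of day −2, replica 1 of day 1 or replica 2 of day 1, and 5 in a fit of the C libraries alone). Itga3, a laminin receptor chain, was at 71.9 and 63.9 CPM at day −2 and 11.5 and 10.3 CPM at day 1 (log2 ratio −2.64 ± 0.24, adjusted p = 6.25e-04). Annexins and S100 proteins had 6 lower and 2 higher members of 18 (5 called without replica 2 of day −2 or replica 1 of day 1). Anxa5, which binds exposed phosphatidylserine, was at 510.3 and 488 CPM at day −2 and 88.6 and 86 CPM at day 1 (log2 ratio −2.52 ± 0.13, adjusted p = 8.03e-05).

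Genes of the extracellular matrix went both ways. Among collagen chains 10 of 29 rose and 2 fell, with a median of 0.91 (5 called without replica 1 or without replica 2 of day −2, 7 without replica 2 of day 1). Col6a1, of the collagen VI that surrounds fat cells, was at 1323 and 1078 CPM at day −2 and 4955 and 5751 CPM at day 1 (log2 ratio 2.16 ± 0.33, adjusted p = 0.00424). Col15a1, of the basement membrane zone, was at 0.797 and 0.709 CPM at day −2 and 5.6 and 6.13 CPM at day 1 (log2 ratio 2.95 ± 0.38, adjusted p = 0.0022). Col4a1, the main basement membrane collagen, was at 2228 and 2059.9 CPM at day −2 and 5766 and 7869 CPM at day 1 (log2 ratio 1.67 ± 0.49, adjusted p = 0.046); the days did not overlap, and the call was lost without replica 1 of day −2 (adjusted p = 0.191), replica 2 of day −2 (0.218) or replica 2 of day 1 (0.183). Col8a1 fell to 0.513 and 0.876 CPM from 16.6 and 18 (log2 ratio −4.63 ± 0.45, adjusted p = 7.38e-04). Col3a1, a fibrillar collagen, was at 3214 and 3038 CPM at day −2 and 6362 and 8519 CPM at day 1 (log2 ratio 1.25 ± 0.56, adjusted p = 0.147) and was not called, although the days did not overlap. It was called in fits of the C libraries alone (adjusted p = 9.83e-04) and without both P libraries of day −2 (1.33e-04), and by DESeq2 (0.0603), at log2 ratios of 1.25.

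Of 46 matrix glycoproteins and crosslinking enzymes, 21 rose and 7 fell, with a median of 0.58. Fn1 (fibronectin) had the largest gain in CPM of all genes called, from 3729 and 3663 to 11523 and 11998 (log2 ratio 1.67 ± 0.14, adjusted p = 4.79e-04). Nid2, a linker of the basement membrane, was at 12.8 and 12.3 CPM at day −2 and 166 and 181 CPM at day 1 (log2 ratio 3.79 ± 0.17, adjusted p = 6.16e-05). Lama4, a laminin chain, was at 39.1 and 34.4 CPM at day −2 and 250.4 and 265 CPM at day 1 (log2 ratio 2.81 ± 0.15, adjusted p = 8.03e-05). Vcan, a large proteoglycan, was at 1024 and 999.9 CPM at day −2 and 4975 and 4408 CPM at day 1 (log2 ratio 2.21 ± 0.39, adjusted p = 0.00796). In all 4 the day 1 libraries lay above both day −2 libraries. Spp1 (osteopontin) fell to 41.2 and 34.2 CPM from 1148 and 1284 (log2 ratio −5.01 ± 0.21, adjusted p = 6.16e-05). Thbs2, a thrombospondin, fell 6.96-fold (log2 ratio −2.80 ± 0.14, adjusted p = 7.84e-05), and Loxl4, a crosslinking lysyl oxidase, fell 9.38-fold (log2 ratio −3.23 ± 0.22, adjusted p = 1.99e-04). Proteases and their inhibitors had 7 higher and 9 lower members of 32, with a median of −0.06. Adamts1, which cleaves versican, was at 176 and 173 CPM at day −2 and 1768 and 2138 CPM at day 1 (log2 ratio 3.48 ± 0.20, adjusted p = 1.06e-04). Mmp2, a gelatinase, was at 214 and 218 CPM at day −2 and 1249 and 1213 CPM at day 1 (log2 ratio 2.51 ± 0.15, adjusted p = 1.49e-04). Mmp3 (stromelysin) and both activators of plasminogen were lower. Mmp3 was at 32.6 and 36.5 CPM at day −2 and 0.71 and 0.557 CPM at day 1 (log2 ratio −5.76 ± 0.35, adjusted p = 1.49e-04). Plau was at 32.2 and 30.9 CPM at day −2 and 2.21 and 2.27 CPM at day 1 (log2 ratio −3.81 ± 0.28, adjusted p = 2.44e-04). Plat was at 123 and 122 CPM at day −2 and 25.8 and 29.7 CPM at day 1 (log2 ratio −2.14 ± 0.16, adjusted p = 2.94e-04). The days were far apart in these 3 genes, and the replicas of a day differed most in Mmp3 at day 1.

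**Figure D4:**
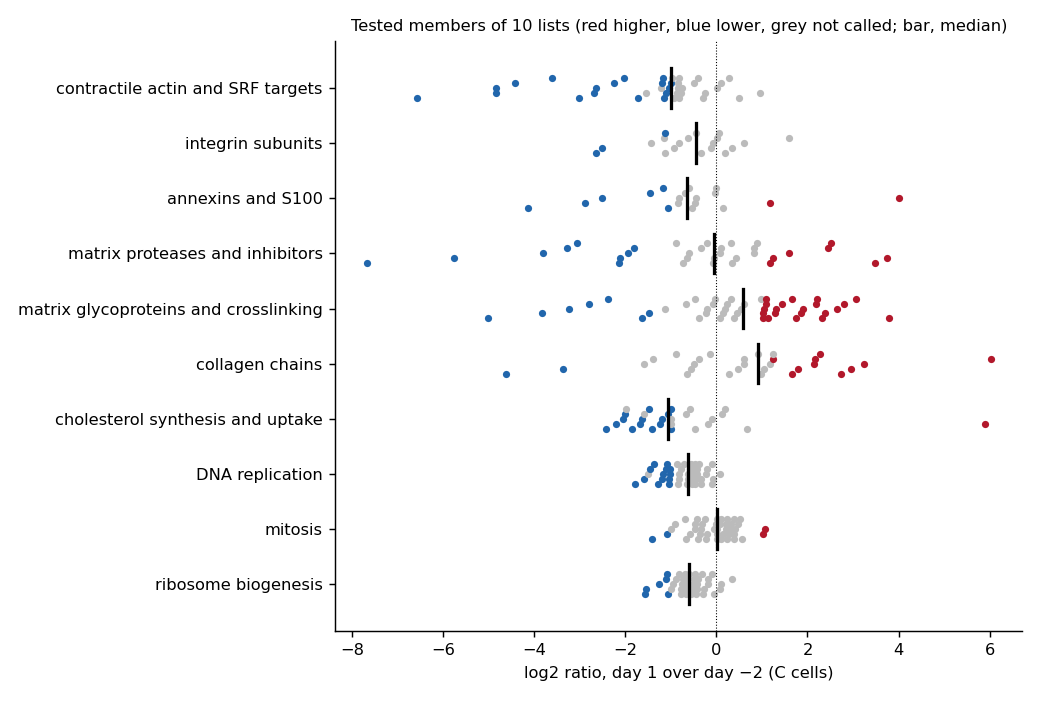
Log2 ratio of day 1 over day −2 in C cells for each tested member of 10 lists (x axis), with red for genes called higher, blue for lower, grey for not called and a bar at the median. Contractile genes reach below −6 with none called higher, collagens and glycoproteins spread to both sides with medians of 0.91 and 0.58, and mitosis genes stay around 0.

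Genes of secreted defence proteins were mostly higher. In the complement and acute phase list 16 of 43 genes were under the filter; of 27 tested, 18 rose and 2 were called lower, with a median of 2.17 (9 called when at least 10 counts were required in each library). Hp (haptoglobin), which binds free haemoglobin, was at 0.199 and 0.133 CPM at day −2 and 16.7 and 17.6 CPM at day 1 (log2 ratio 6.63 ± 0.29, adjusted p = 6.16e-05). C3, the central component of complement, rose 108-fold (log2 ratio 6.75 ± 0.20, adjusted p = 6.16e-05). C1s1, a protease that starts the classical pathway, was at 2.63 and 2.08 CPM at day −2 and 31.2 and 24.5 CPM at day 1 (log2 ratio 3.56 ± 0.41, adjusted p = 0.00141), and was named after its values were seen. C2, another protease of that pathway, was 1 of the 2 members called lower, at 0.717 and 1.15 CPM at day −2 and 0.118 and 0.119 CPM at day 1 (log2 ratio −2.92 ± 1.00, adjusted p = 0.0743), a call that was lost with any 1 C library left out (adjusted p from 0.213 to 0.324). Chemokines went both ways, 4 higher and 6 lower of 16 tested, with 12 of 28 under the filter (6 called with any 1 C library left out, or at 10 counts in each library). Ccl5 was at 2.19 and 1.95 CPM at day −2 and 27.9 and 19.7 CPM at day 1 (log2 ratio 3.52 ± 0.36, adjusted p = 9.41e-04). Ccl2 (MCP-1), which draws monocytes, fell to 33.8 and 16 CPM from 216 and 271 (log2 ratio −3.29 ± 0.51, adjusted p = 0.00464). Ccl9 was at 24.7 and 24.2 CPM at day −2 and 1.3 and 1.15 CPM at day 1 (log2 ratio −4.31 ± 0.53, adjusted p = 0.00189). Among receptors and transducers of cytokines, 11 of 22 STAT and SOCS genes rose and 1 fell, with a median of 0.98. Il6st (gp130), which signals for the IL-6 family, was at 120.1 and 110.3 CPM at day −2 and 620.1 and 688 CPM at day 1 (log2 ratio 2.51 ± 0.17, adjusted p = 1.94e-04). Lifr, its partner in the receptor for LIF, was at 10.4 and 10.8 CPM at day −2 and 79.2 and 79.7 CPM at day 1 (log2 ratio 2.90 ± 0.22, adjusted p = 2.65e-04). Socs2, a feedback inhibitor of growth hormone signalling, was at 4.94 and 5.18 CPM at day −2 and 52.4 and 46 CPM at day 1 (log2 ratio 3.28 ± 0.16, adjusted p = 7.84e-05). Day 1 lay above day −2 in both replicas of all 3.

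Interferon-stimulated genes had the largest share of called members: 40 of 45 rose, none was called lower, and the median log2 ratio was 2.98 against −0.01 over all genes. All 45 passed the filter on low counts, which a gene could pass through its day 1 or P libraries alone. At 10 counts in each library 34 members were called. Oas2, which makes the second messenger that activates RNase L, was at 0.279 and 0.266 CPM at day −2 and 32.6 and 34.9 CPM at day 1 (log2 ratio 6.93 ± 0.23, adjusted p = 6.16e-05). Irf7, the factor that amplifies interferon production, was at 1.12 and 1.02 CPM at day −2 and 23.2 and 22.6 CPM at day 1 (log2 ratio 4.42 ± 0.19, adjusted p = 6.16e-05). Psmb9, a subunit of the immunoproteasome, was at 0.199 and 0.0886 CPM at day −2 and 11.2 and 11.2 CPM at day 1 (log2 ratio 6.21 ± 0.33, adjusted p = 8.03e-05). In all 3 both day 1 libraries lay above both day −2 libraries; Psmb9 had 5 and 2 counts at day −2. Stat2 and Irf9, through which type I interferons act and which were named after their values were seen, were higher too. Stat2 rose 7.35-fold (log2 ratio 2.88 ± 0.20, adjusted p = 2.34e-04) and Irf9 5.07-fold (log2 ratio 2.34 ± 0.16, adjusted p = 2.12e-04). The 5 members not called were Gbp4, Ifih1, Irf1, Isg20 and Ifit2, at log2 ratios from −0.82 to 1.39. Gbp4 was called in a fit of the C libraries alone (adjusted p = 0.0169) and without either or both P libraries of day −2 (0.0153 to 0.0208). Some of the Oas, Gbp and Ifit genes are close copies of each other, and the counting could divide their reads.

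Signals between cells changed in several families. In the Wnt list 21 of 53 genes were under the filter, 8 of the 32 tested rose and 4 fell, and the median was 0.29. The ligand Wnt4 was at 2.27 and 1.64 CPM at day −2 and 133 and 131 CPM at day 1 (log2 ratio 6.07 ± 0.25, adjusted p = 6.16e-05). The receptor Fzd4 was at 1.79 and 1.77 CPM at day −2 and 20.7 and 24.4 CPM at day 1 (log2 ratio 3.66 ± 0.22, adjusted p = 1.51e-04). Lgr4, a receptor for R-spondins, was at 11.6 and 13.2 CPM at day −2 and 73.5 and 64.2 CPM at day 1 (log2 ratio 2.47 ± 0.16, adjusted p = 1.79e-04). These 3 were higher in both day 1 libraries than in either day −2 library. Its relative Lgr6 went the other way, from 12.1 and 13.6 to 0.158 and 0.199 CPM (log2 ratio −6.13 ± 0.48, adjusted p = 3.15e-04), as did Ccn4 (Wisp1), a Wnt target, from 63.6 and 65.9 to 16.8 and 19.7 CPM (log2 ratio −1.83 ± 0.23, adjusted p = 0.00199). In the TGF-beta and BMP list, 13 of 45 rose and 6 fell, with a median of 0.08 (10 called without either day −2 library and 11 without either day 1 library). Fstl1 and Fst, secreted follistatin proteins of which Fst binds activin, rose. Fstl1 was at 509 and 494 CPM at day −2 and 2917 and 3373 CPM at day 1 (log2 ratio 2.65 ± 0.16, adjusted p = 1.28e-04). Fst was at 9.01 and 11.2 CPM at day −2 and 51.7 and 59.1 CPM at day 1 (log2 ratio 2.46 ± 0.20, adjusted p = 3.91e-04). Tgfbr3 (betaglycan), a co-receptor, rose 3.47-fold (log2 ratio 1.79 ± 0.15, adjusted p = 3.91e-04).

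The genes with the largest ratios mixed these groups with others. Among genes that averaged 50 or more counts in the C libraries, the 10 largest ratios upward belonged to Pip, Orm1, Lcn2, Krt36, Ren1, Ren2, Agtr2, Apod, Sema3g and Wfdc12. Pip, a secreted protein of glands, Orm1, an acute phase protein, and Krt36, a hair keratin, had no count at day −2 and were at 19.3 and 9.44 CPM, 5.72 and 5.26 CPM and 3.63 and 5.02 CPM at day 1, at least 114-fold, 43.5-fold and 34.3-fold higher against a floor of 3 counts per library. Ren1, renin, and its near-identical copy Ren2 had the same counts in each library, at 0.0398 and 0.0443 CPM at day −2 and 32.1 and 29.9 CPM at day 1, so that the reads could not be assigned to 1 of them; the ratio over 2 counts at day −2 was 739.7 (95% exact counting interval 204 to 6113). Agtr2, a receptor of angiotensin II, had 1 count at day −2 and 15.7 and 9.71 CPM at day 1, a ratio of 607 (95% exact counting interval 109 to 24029). These intervals cover counting error only. Apod, a carrier of small lipids, was at 0.12 and 0.266 CPM at day −2 and 102 and 81.2 CPM at day 1 (log2 ratio 8.88 ± 0.34, adjusted p = 6.16e-05). Sema3g, a secreted semaphorin, was at 0.159 and 0.0886 CPM at day −2 and 35.2 and 53 CPM at day 1 (log2 ratio 8.40 ± 0.60, adjusted p = 2.43e-04).

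Downward, the 10 largest ratios under the same rule were those of Hnmt, AY512915, Tnnt2, Slco4a1, Cd300lb, Fgd3, Pdgfb, Tagln, Dusp9 and Etv4. Tnnt2, troponin T of the heart, was at 93.3 and 76 CPM at day −2 and 0.276 and 0.119 CPM at day 1 (log2 ratio −8.70 ± 0.62, adjusted p = 2.38e-04). Fgd3, an activator of Cdc42, was at 26.5 and 25.2 CPM at day −2 and 0.158 and 0.279 CPM at day 1 (log2 ratio −6.86 ± 0.54, adjusted p = 3.33e-04). Dusp9, another ERK phosphatase, was at 20.8 and 19.7 CPM at day −2 and 0.276 and 0.199 CPM at day 1 (log2 ratio −6.38 ± 0.62, adjusted p = 7.42e-04). Pdgfb, the B chain of platelet-derived growth factor, was at 5.34 and 4.96 CPM at day −2 and 0.0395 and 0.0398 CPM at day 1, a ratio of 130.2 (95% exact counting interval 35.7 to 1081) over 2 counts at day 1. Hnmt, which inactivates histamine, went from 7.29 and 7.75 CPM to no count, at least 63.3-fold lower. Its adjusted p of 0.0947 and that of AY512915 (0.0907) were close to the threshold, and both calls were lost with any 1 C library left out (adjusted p from 0.192 to 0.312 over these fits). In all, 25 called genes had no count in either day −2 library and 32 had none in either day 1 library, and for 21 and 29 of them the ratio against the floor was over 2. Cyp2f2, a cytochrome P450, and Retnla, a secreted resistin-like protein, were among the first at 3.55 and 3.86 and 3.00 and 2.47 CPM, and Gna14, a G protein, among the second, at 1.63 and 1.46 CPM at day −2.

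P cells were used only to ask where induction differed from that of C cells, by the difference of the 2 log2 ratios in the same fit. This difference was called at an adjusted p under 0.1 for 316 genes (2.37%), 258 with a lower and 58 with a higher ratio in P cells, and a block on the replica number left 117. This count depended on single libraries, and the 2 libraries of P cells at day −2 lay far apart. Leaving out either of these 2 raised the count, and leaving out any 1 C library lowered it. In the interferon list 34 of 45 members were called, all with the lower ratio in P cells (25 with the block, 39 and 41 without replica 1 and 2 of P cells at day −2). The list summed to 306 and 304 CPM in C cells at day −2 and 1744 and 1879 CPM at day 1, and to 980.2 and 918 CPM in P cells at day −2 and 1255 and 1216 CPM at day 1. The median log2 ratio was 2.98 in C cells and 0.32 in P cells. Oas2 was at 4.15 and 4.35 CPM at day −2 and 12 and 10.9 CPM at day 1 in P cells, and so lay above C cells before induction and below them after it. In the mature fat cell list 7 of 32 members were called, all with the higher ratio in P cells (4 with the block, 12 and 20 without replica 1 and 2 of P cells at day −2, and 12 by DESeq2). Adipoq was at 0.266 and 0.25 CPM at day −2 and 19.4 and 16.1 CPM at day 1 in P cells, against 1 to 3 counts in each C library.

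**Figure D5:**
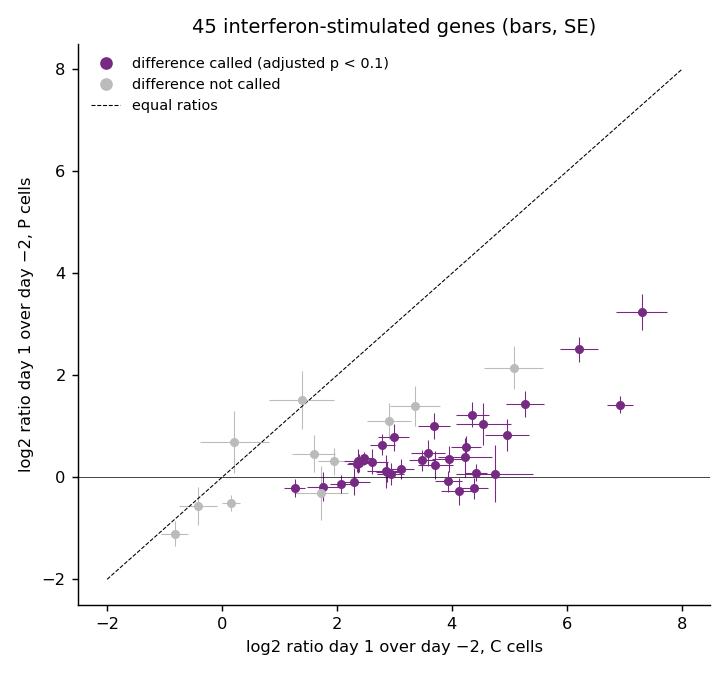
Log2 ratio of day 1 over day −2 in P cells (y axis) against that in C cells (x axis) for the 45 interferon-stimulated genes, with bars of 1 SE and a dashed line at equal ratios. The difference was called for the 34 purple genes, and 43 of 45 genes lie under the line.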

How the data were processed

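The authors made Ion Torrent libraries from total RNA, removed artifacts with the FASTX-Toolkit, aligned the reads to mm9 with TopHat2 2.0.9 and counted them per gene of the UCSC refGene annotation with Bioconductor range packages; the strand setting is not given in the sources used here. The deposited values are raw counts of 24013 NCBI genes in 8 libraries of 20428816 to 27614353 counts. Symbols for 23929 genes came from a RefSeq table of GRCm38.p6, used for names only, and 84 genes kept their numbers. Gene 100861531, without a symbol, took 4.29% to 5.90% of the counts of a C library.

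The analysis used edgeR 4.0.16 in R 4.3.3. Genes were filtered with filterByExpr over the 4 conditions, libraries were scaled by TMM (factors 0.968 to 1.08 in C cells), and a model with 1 mean for each condition was fitted over the 8 libraries, so that a gene could pass the filter through P cells. Log2 ratios used the default prior count of edgeR's fit. A prior count of 2 entered only the log2 CPM behind the spread and the correlations of replicas. Errors after ± are standard errors (the log2 ratio over the square root of F) with n = 2 replicas a day. Tests were two-sided, and adjusted p-values are Benjamini-Hochberg values over all tested genes from the quasi-likelihood test. Calls needed an adjusted p under 0.1 and a ratio over 2 or under 0.5, after the study's own thresholds. The replicas are biological by the study's methods, with no further detail on separate cultures, so that p-values measure the spread between these libraries; their numbers were not used as pairs. The script was tested on simulated data. DESeq2 1.42.0, other scalings and filters, a replica block and fits without single libraries were alternatives.

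The 35 gene lists, 6 marker lists and the comparison were chosen with earlier results of these data known. Genes named were the 10 largest ratios each way at a mean of at least 50 counts with replicas that did not overlap, the 3 called genes each way with the lowest p per list, a fixed set of regulators, and the 5 largest gains, losses and genes with no count on 1 day; some are not reported here, and others are marked as named after their values were seen.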

Additional observations from a re-analysis of the deposited data

Results flagged for a closer look

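For 41 genes named here the response of P cells to induction differed from that of C cells, by the test of the difference itself at an adjusted p under 0.1 in edgeR's quasi-likelihood test. The values are the log2 ratio in P cells minus that in C cells. The difference was lower in P cells for 34 of the genes and higher for 7. These were 41 of 163 named genes, against 316 (2.37%) of all 13339 tested. Many genes were named for a large ratio or a low p in C cells. That ratio enters the difference, so that the count and its split are no result about these genes. The difference stayed under an adjusted p of 0.1 for 16 of the 41 with the replica number as a block, for 33 with the numbers of all day 1 libraries crossed, and for 40 and 41 without replica 1 and replica 2 of P cells at day −2. No group had 4 or more samples, so that no single library could be tested as standing apart.

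Interferon-stimulated genes included the lowest adjusted p of the 41. Their differences were −5.50 in Oas2 and −4.32 in Irf7 (adjusted p = 0.00289 for both), −3.71 in Psmb9, −2.77 in Stat2 and −2.09 in Irf9. Among other defence and cytokine genes the difference was −4.91 in Hp, −1.61 in C3, −1.09 in Il6st, −1.91 in Lifr and −1.32 in Socs2. Of the transcription factors, Cebpa differed by −2.61 (adjusted p = 0.0836), Cebpd by −2.53, Egr1 by −1.96, Egr2 by −2.44 and Per2 by −1.72. A lower ratio in P cells can come from a higher level at day −2 or a lower one at day 1. The adipogenic factor list summed to 1582 and 1435 CPM in P and 1215 and 1245 CPM in C cells at day −2. At day 1 it summed to 2268 and 2234 CPM and 2282 and 2269 CPM. The AP-1 and Egr list summed to 4611 and 1809 CPM in P and 1442 and 1511 CPM in C cells at day −2. At day 1 it summed to 4041 and 4114 CPM and 5291 and 6250 CPM. Sums do not show single genes.

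In signalling genes the difference was −2.45 in Spry1, −1.37 in Pde4d, −1.62 in Wnt4, −2.11 in Fst, 4.46 in Lgr6, −1.5 in Ccn4, −1.99 in Slit3, 1.21 in Sema3f, −3.98 in Sema3g and −1.61 in Agt. Matrix genes differed by −0.94 in Fn1, −1.54 in Lama4, −1.18 in Nid2, −1.5 in Spp1, −1.67 in Adamts1 and 4.09 in Mmp3. In metabolism it was −1.53 in Abca1, −1.43 in Pdk1, −1.35 in Xdh, −1.53 in Enpp2 and −3.43 in Apod. Fat cell genes lay on the other side, with 5.24 in Adipoq, 2.57 in Fabp4, 1.89 in Fabp5 and 9.10 in Slc2a4. The values of Slc2a4 and of Cyp2f2 (−4.94) rest on fitted ratios against days with no count and are not bounds, and Adipoq was at or under 3 counts in each C library.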

How the results depend on the processing

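Of 163 genes named in the text, 140 kept their direction and their side of the thresholds in every fit that tested them, and 160 were never reversed. A gene that the filter of a fit removed was not counted as changed there. Pip, with no count at day −2, was not tested at 10 counts in each library. Reversals were small: Nr3c1 (0.014 with no filter, −0.080 to 0.090 over fits that left out 1 library), Adipoq (−0.041 to 1.40) and Ifih1 (−0.054 to 0.55). Leaving out 1 library at a time gave 1664 to 3329 called genes, 906 to 1697 higher and 758 to 1632 lower, and 38 to 8395 calls for the difference between P and C cells. For the lists the range was 7 to 13 for preadipocyte brakes, 6 to 12 for AP-1 and Egr, 5 to 8 for the clock, 7 to 14 for mature fat cell genes, 9 to 15 for cholesterol, 7 to 14 for DNA replication, 5 to 9 for cyclins and CDK inhibitors, 1 to 5 for p53 targets, 2 to 6 for ribosome biogenesis, 0 to 3 for ribosomal proteins, 1 to 3 for the respiratory chain, 5 to 17 for collagens, 1 to 5 for integrins, 5 to 8 for annexins and S100, 6 to 13 for chemokines, 10 to 19 for TGF-beta and BMP, 9 to 17 for axon guidance, 1 to 2 for the unfolded protein response and 3 to 7 for Hox genes. Where a library is missing, the remaining one of its day is taken to vary like the other conditions.

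Without the ratio threshold 4743 genes were called, 2418 higher and 2325 lower, with 19 members in adipogenic factors, 17 in brakes, 12 in fatty acid synthesis, 26 in DNA replication, 13 in mitosis, 16 in cyclins, 10 in p53 targets, 18 in ribosome biogenesis, 8 in ribosomal proteins, 9 in the respiratory chain, 16 in glycolysis, 27 in contractile genes, 5 in integrins, 13 in annexins, 9 in the unfolded protein response and 10 in Hox genes. With library totals 1 ribosomal protein and 5 integrins were called. At 10 counts in each library the calls were 5 annexins, 9 complement genes, 6 chemokines and 2 Hox genes. A fit of the C libraries alone, or one without both P libraries of day −2, called 5 integrins, and at an adjusted p under 0.05 there were 1 ribosomal protein and 174 differences between P and C cells. DESeq2 gave 930 such differences.

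The replica numbers were not taken as pairs. Over all tested genes, deviations of libraries of the same number correlated negatively in 5 of 6 pairs of conditions. Over well expressed genes they did in 4 of 6. On these 2 sets of genes, C and P cells at day −2 correlated at 0.209 and 0.438. C cells at day −2 and at day 1 correlated at −0.0523 and −0.503, and P cells at day −2 with C cells at day 1 at −0.355 and −0.752. Whether libraries of unlike numbers belonged together was not tested. A replica block over all libraries called 2484 genes, 1337 higher and 1147 lower, and 117 differences between P and C cells; with P numbers of day 1 crossed the last was 148, and with all day 1 numbers crossed, a choice made like the former after the data were seen, 313. A block in the C libraries alone called 3151 genes and 6 integrins. All other counts of genes called between the days under DESeq2, its size factors, no filter and these blocks stayed within 1.5 times the reported ones. A planned search for motifs in promoters was not run, as no promoter sequences were used here. The cause of these shifts was not tested. With 2 libraries a day, and 3 counts standing at 0.118 to 0.133 CPM, ratios of genes near that level are the least certain.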

Other observations

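Lists not described above were those of axon guidance, antioxidant and Hox genes. Axon guidance had 8 higher and 8 lower members of 44 tested, with a median log2 ratio of −0.29 (9 called without either day −2 library and 10 without either day 1 library). Slit3, a ligand of Robo receptors, was at 25.2 and 25.9 CPM at day −2 and 258 and 295 CPM at day 1 (log2 ratio 3.44 ± 0.22, adjusted p = 1.82e-04). Plxnd1, a semaphorin receptor, was at 63.6 and 62.5 CPM at day −2 and 285 and 322 CPM at day 1 (log2 ratio 2.27 ± 0.24, adjusted p = 0.00103). Epha2, an ephrin receptor, was at 61.9 and 56.4 CPM at day −2 and 9.63 and 11.8 CPM at day 1 (log2 ratio −2.46 ± 0.25, adjusted p = 8.86e-04). Sema3f, a secreted semaphorin, fell 3.16-fold (log2 ratio −1.66 ± 0.17, adjusted p = 8.69e-04). Antioxidant genes and metallothioneins had 6 higher and 6 lower members of 26, with a median of −0.12. Gclc, the catalytic subunit that starts glutathione synthesis, rose 2.36-fold (log2 ratio 1.24 ± 0.15, adjusted p = 0.00167). Gsta4, a glutathione transferase, and Hmox1, which breaks down haem, fell 3.8-fold (log2 ratio −1.93 ± 0.15, adjusted p = 2.94e-04) and 2.25-fold (log2 ratio −1.17 ± 0.15, adjusted p = 0.00209). Of 39 Hox genes 16 were under the filter, 4 of 23 rose and 2 were called lower, with a median of 0.72 (3 called without replica 1 of day −2 or replica 1 of day 1, 2 at 10 counts in each library). Hoxd3 was at 1.59 and 1.73 CPM at day −2 and 12.9 and 12.4 CPM at day 1 (log2 ratio 2.93 ± 0.34, adjusted p = 0.00146). Hoxd4 was at 3.51 and 3.32 CPM at day −2 and 14.8 and 17.4 CPM at day 1 (log2 ratio 2.24 ± 0.29, adjusted p = 0.00231), and their days did not overlap.

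Other genes were looked up after the values had been seen. Agt (angiotensinogen), the substrate of renin, was at 1.04 and 1.06 CPM at day −2 and 32 and 33.5 CPM at day 1 (log2 ratio 4.96 ± 0.20, adjusted p = 6.16e-05), so that substrate, enzyme (Ren1 or Ren2) and a receptor (Agtr2) were all called higher. The receptors of platelet-derived growth factor went opposite ways. Pdgfra was at 146 and 158 CPM at day −2 and 542 and 604 CPM at day 1 (log2 ratio 1.91 ± 0.14, adjusted p = 2.52e-04). Pdgfrb was at 164 and 149.8 CPM at day −2 and 50.1 and 54.9 CPM at day 1 (log2 ratio −1.58 ± 0.21, adjusted p = 0.00257). Il1rl1, the receptor of IL-33, was at 273 and 283 CPM at day −2 and 6.31 and 5.89 CPM at day 1 (log2 ratio −5.51 ± 0.36, adjusted p = 1.82e-04). Enpp2 (autotaxin), which makes lysophosphatidic acid, was at 1.28 and 1.73 CPM at day −2 and 46.8 and 44.2 CPM at day 1 (log2 ratio 4.92 ± 0.22, adjusted p = 6.16e-05). Xdh (xanthine dehydrogenase) was at 41.8 and 37.7 CPM at day −2 and 1017 and 1114 CPM at day 1 (log2 ratio 4.74 ± 0.20, adjusted p = 6.16e-05). The replicas of a day lay close together in each of these genes except in Enpp2 at day −2.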
